A study of Homo sapiens with 12 samples.

Results

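The genes described here are 10 members of the BCL2 family, the proteins that set whether a cell's mitochondria release the factors that start apoptosis. They were taken by name and role: the survival genes MCL1, BCL2 and BCL2L1, the effector genes BAX and BAK1, and the BH3-only genes BBC3, PMAIP1, BCL2L11, BID and BAD. Each was found among the 26231 named genes of the deposited normalized table, and all 10 passed the low-count filter that left 11968 genes for testing.

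Survival members of the family sit at the outer mitochondrial membrane and hold the effectors BAX and BAK1 in check. BH3-only proteins are made or activated after stress, and they bind survival members or effectors until the effectors form pores, cytochrome c escapes and caspases are activated. In B-cell precursor leukaemia the balance of these proteins bears on the response to glucocorticoids and to drugs that occupy the binding groove of BCL2 or MCL1. Much of the regulation is at the protein level, and MCL1 has a short-lived protein, so the mRNA levels given here are not protein levels.

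The labels give 697(EU3), an established human B-cell leukaemia line, as the cells of all libraries. All 12 libraries came from cells first sorted for high aldehyde dehydrogenase activity (ALDH+). SH2 is a short hairpin directed at the mRNA of IGF2BP1, a protein that binds and stabilises transcripts, and doxycycline switches the hairpin on together with a green fluorescent reporter. The other cells are the labels' control for doxycycline, and the labels leave unsaid whether they hold the scrambled shRNA named in the protocol. The groups were SH2 cells with doxycycline and sorted again for the reporter (sets 1 to 4, n = 4), SH2 cells without doxycycline (sets 1 to 4, n = 4), control cells with doxycycline (sets 2 and 4, n = 2) and control cells without doxycycline (sets 2 and 4, n = 2). The set numbers are those of the labels. By the design text each replicate was sorted and treated on its own, and a set is taken here as 1 such replicate. The sources used here give neither the dose nor the duration of doxycycline.

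Between 2210291 and 3370952 reads per library were assigned to genes. IGF2BP1 itself had 6.28, 14.8, 25.0 and 16.2 CPM (reads scaled to a common library total) in treated SH2 cells of sets 1 to 4, against 21.7, 30.5, 39.2 and 32.9 CPM in untreated SH2 cells, and at most 1.42 CPM in any control library. All 8 B-lineage markers had reads in both kinds of cell, with a summed level of 994 to 1730 CPM in SH2 and 2010 to 2820 CPM in control libraries. The kinds of cell differed in their immunoglobulin light chain: kappa (IGKC) took 0% to 0.141% of light-chain reads in the 8 SH2 libraries and 99.7% to 99.9% in the 4 control libraries. A light chain is as a rule kept by a B cell and its descendants, so in SH2 against control cells the shRNA construct and other differences between the cells, a different origin among them, cannot be told apart. Whether both derive from the labelled line was not tested. The 6 T-cell markers summed to 23.8 to 105 CPM in SH2 libraries, with CD5 and CD2 at 0, and to 15.3 to 643 CPM in control libraries, where the control libraries of set 2 held the high values. Of the 6 myeloid markers, the sum was 4.61 to 19.0 CPM in SH2 and 0.723 to 3.32 CPM in control libraries. The treated SH2 library of set 4 stood apart from the rest: its correlations with the SH2 libraries other than itself ran from 0.832 to 0.908, against 0.893 to 0.967 between those.

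With this kit (QuantSeq) a transcript gives about 1 fragment, from beside its poly(A) tail, whatever its length, and CPM of different genes are therefore set side by side here. In bulk RNA, fewer cells with a transcript and less of it per cell cannot be told apart. By mean level over the 12 libraries, MCL1 stood first at 527 ± 195 CPM (SD, n = 12). The BH3-only genes BBC3 (163 ± 73.1 CPM), PMAIP1 (133 ± 78.3 CPM) and BCL2L11 (109 ± 33.7 CPM) came next, then BCL2 (80.8 ± 19.1 CPM) and BAX (45.0 ± 20 CPM). BAD, BAK1, BID and BCL2L1 shared the low end with means of 24.3 to 27.4 CPM. MCL1 exceeded BBC3 in 11 of 12 libraries, the exception being the treated control library of set 4. Among neighbours in this order, MCL1 and BBC3, and BCL2 and BAX, lay further apart in mean than the larger of their SDs. The other neighbours did not differ beyond their spread over the 12 libraries, although BAX exceeded BAD in 10 of them; BAK1 exceeded BID in 4 and BID exceeded BCL2L1 in 6. The order was not the same in both kinds of cell: PMAIP1 averaged 158 ± 85.8 CPM and BBC3 126 ± 35.8 CPM in the 8 SH2 libraries, against 82.2 ± 12.2 CPM and 237 ± 74.5 CPM in the 4 control libraries.

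**Figure D1:**
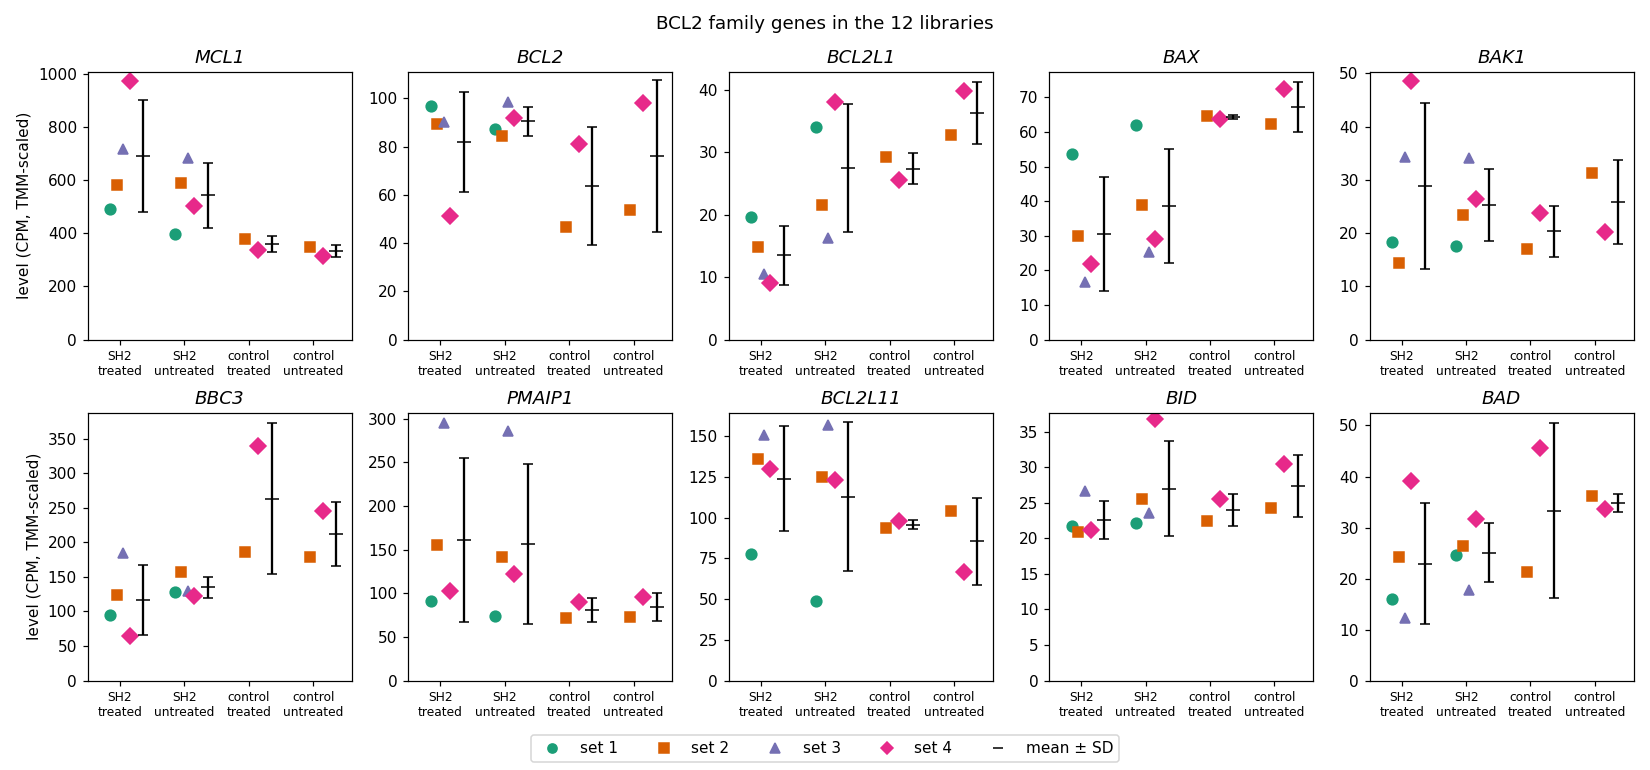
Level of each BCL2 family gene (vertical axes, TMM-scaled CPM, linear from 0) in treated SH2, untreated SH2, treated control and untreated control cells. Points are libraries, shaped by set, and bars are the mean ± SD; MCL1 lies at 398 to 974 CPM in SH2 libraries, above the 316 to 380 CPM of the control libraries, and BAX lies lower in every SH2 library than in any control library.

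MCL1 (ENSG00000143384, GRCh38, chr1:150574551-150579738, minus strand) encodes a survival protein that binds BAK1 and several BH3-only proteins and that B-cell progenitors need. It reached 492, 580, 718 and 974 CPM in treated and 398, 588, 685 and 503 CPM in untreated SH2 cells of sets 1 to 4, against 380 and 338 CPM in treated and 349 and 316 CPM in untreated control cells of sets 2 and 4. All 8 SH2 libraries lay above all 4 control libraries, and the treated SH2 library of set 4 was the highest. The end of MCL1 overlaps an exon of ADAMTSL4-AS1 on the same strand. How many MCL1 reads this overlap leaves uncounted was not tested, so the MCL1 level and the shares given below carry that limit. BCL2 (ENSG00000171791, chr18:63123346-63320128, minus strand), the founding survival gene and the target of venetoclax, had 96.8, 89.6, 90.3 and 51.2 CPM in treated and 87.3, 84.5, 98.5 and 91.7 CPM in untreated SH2 cells. In control cells BCL2 had 46.5 and 81.0 CPM with and 53.6 and 98.3 CPM without doxycycline. The groups overlapped. The low libraries were the treated SH2 library of set 4 and both control libraries of set 2, which also had the highest T-cell marker sums. What those markers contribute to the BCL2 level was not tested.

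BCL2L1 (ENSG00000171552, chr20:31664452-31723989, minus strand) encodes BCL-XL, the survival protein of maturing red cells and platelets among others. Its level was 19.7, 14.8, 10.5 and 9.10 CPM in treated SH2 cells of sets 1 to 4, against 34.0, 21.6, 16.2 and 38.0 CPM in untreated SH2 cells. Control cells had 29.2 and 25.6 CPM with and 32.7 and 39.8 CPM without doxycycline. The treated SH2 libraries held the lowest values, yet the treated library of set 1 overlapped the untreated library of set 3. These levels rest on 27 to 126 reads per library.

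MCL1 supplied most of the reads of the 3 survival genes in every library. Its share had a median of 86.2% in treated SH2, 82.1% in untreated SH2, 79.7% in treated control and 74.9% in untreated control cells. The highest share was 94.2% in the treated SH2 library of set 4 (95% exact Clopper-Pearson interval 93.3% to 95%, counting error only), and the lowest was 69.6% in the untreated control library of set 4 (67.0% to 72.1%). BCL2L1 supplied 0.88% to 3.24% of these reads in treated SH2, 2.03% to 6.56% in untreated SH2, 5.76% to 6.39% in treated control and 7.52% to 8.76% in untreated control cells. The shares sum to the whole in each library, so a higher MCL1 share goes with lower shares of the other genes by construction.

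**Figure D2:**
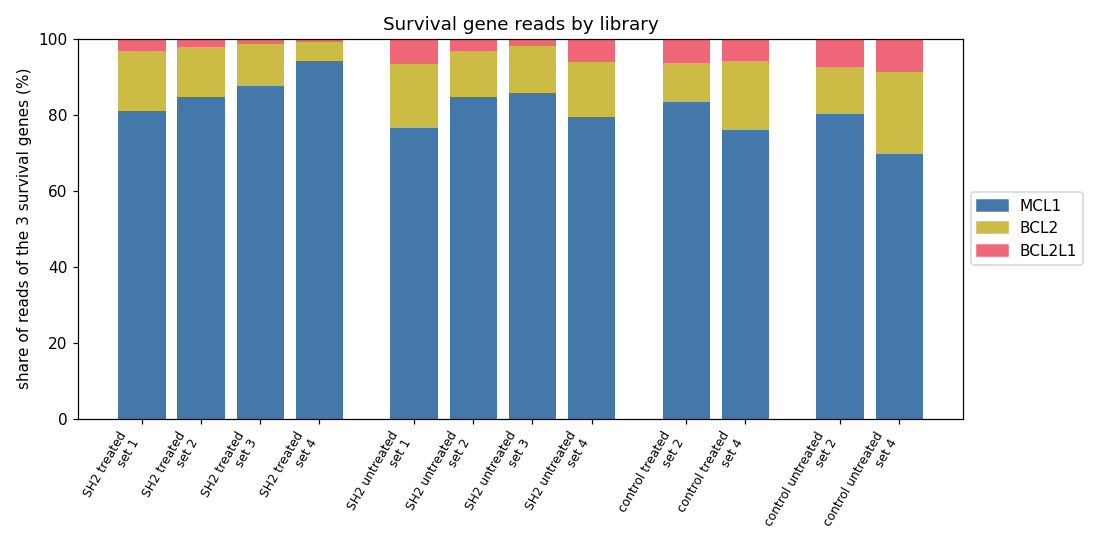
Share of reads of the 3 survival genes taken by MCL1, BCL2 and BCL2L1 (vertical axis, percent) in each of the 12 libraries, treated before untreated and SH2 before control. MCL1 takes 69.6% to 94.2% of each bar and BCL2L1 the thinnest band, 0.88% in the treated SH2 library of set 4.

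Of the effectors, BAX (ENSG00000087088, chr19:48954815-48961798, plus strand) moves from the cytosol into the outer mitochondrial membrane and forms pores there. It had 53.6, 30.0, 16.5 and 21.9 CPM in treated and 61.9, 38.8, 25.3 and 29 CPM in untreated SH2 cells of sets 1 to 4, against 64.7 and 63.8 CPM in treated and 62.2 and 72.3 CPM in untreated control cells. Every SH2 library lay below every control library, though the untreated SH2 library of set 1 came within 1 CPM of the lowest control value. BAK1 (ENSG00000030110, chr6:33572547-33580293, minus strand), the effector already resident in the membrane, ranged from 14.4 to 48.5 CPM in treated SH2, 17.6 to 34.0 CPM in untreated SH2, 17.0 to 23.7 CPM in treated control and 20.2 to 31.3 CPM in untreated control cells, and all groups overlapped. BAK1 has pseudogenes elsewhere in the genome (BAK1P1 and BAK1P2), so reads shared with them leave its level uncertain. BAK1 stood at 0.262 to 0.504 of the BAX level in control libraries and at 0.285 to 2.22 of it in SH2 libraries.

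Among the BH3-only genes, BBC3 (ENSG00000105327, chr19:47220822-47232766, minus strand) encodes PUMA, which binds all survival members. BBC3 had 95.1, 124, 184 and 65.0 CPM in treated and 128, 157, 130 and 123 CPM in untreated SH2 cells, against 186 and 340 CPM in treated and 179 and 245 CPM in untreated control cells. The SH2 libraries lay below the control libraries apart from the treated SH2 library of set 3, which fell between the control values. PMAIP1 (ENSG00000141682, chr18:59899948-59904306, plus strand) encodes NOXA, which binds MCL1 and drives its breakdown. PMAIP1 had 91.3, 155, 295 and 102 CPM in treated and 73.4, 142, 286 and 122 CPM in untreated SH2 cells, against 71.1 and 90.2 CPM in treated and 72.6 and 95.1 CPM in untreated control cells. Both SH2 libraries of set 3 were far above all others, and both of set 1 lay within the control range.

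The BBC3 to PMAIP1 ratio was lower in every SH2 library. It was 0.623 to 1.04 in treated SH2 and 0.455 to 1.75 in untreated SH2 cells, against 2.61 to 3.77 in treated control and 2.46 to 2.57 in untreated control cells. No SH2 library reached the ratio of any control library. The ratio sets a gene of lower mean in SH2 libraries over a gene of higher mean. The ratio was not alone in this. BCL2 to BAX was 1.41 to 5.48 in SH2 and 0.718 to 1.36 in control libraries, without overlap. MCL1 to BAX did not overlap either (6.42 to 44.5 against 4.37 to 5.88). Ratios that overlapped were MCL1 to PMAIP1 (2.4 to 9.54 against 3.32 to 5.35) and MCL1 to BCL2 (4.55 to 19 against 3.21 to 8.19). MCL1 to BCL2L1 and BAK1 to BAX overlapped as well. How often other pairs of genes separate the 2 kinds of cell was not tested.

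BCL2L11 (ENSG00000153094, chr2:111119378-111168447, plus strand) encodes BIM, the BH3-only protein behind much of the glucocorticoid death of lymphoid cells. Its range was 77.5 to 151 CPM in treated SH2, 48.8 to 157 CPM in untreated SH2, 93.9 to 97.8 CPM in treated control and 66.5 to 104 CPM in untreated control cells. The noncoding gene MIR4435-2HG overlaps BCL2L11 on the opposite strand, with no exon at the end of BCL2L11. Whether its reads affect the BCL2L11 level was not tested. BID (ENSG00000015475, chr22:17734138-17774770, minus strand), which carries the death receptor signal to mitochondria once cleaved, was the steadiest member, with 20.9 to 26.7 CPM in treated SH2, 22.1 to 36.8 CPM in untreated SH2, 22.4 to 25.6 CPM in treated control and 24.2 to 30.4 CPM in untreated control cells. BAD (ENSG00000002330, chr11:64269830-64284704, minus strand), which growth factor signalling holds inactive by phosphorylation, ranged from 12.2 to 39.1 CPM in treated SH2, 17.8 to 31.7 CPM in untreated SH2, 21.2 to 45.5 CPM in treated control and 33.6 to 36.1 CPM in untreated control cells. The end of BAD lies across from an exon of GPR137 on the opposite strand, and whether reads were counted by strand is unknown here, so the BAD level is uncertain.

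Promoter windows are shown for 3 of the 5 members whose treated SH2 and treated control libraries did not overlap, BAX and BBC3 (lower in SH2) and PMAIP1 (higher in SH2), a choice made after the values were seen; the other members of that group, MCL1 and BCL2L1, are not shown. Of the 10 members, 9 matched the RefSeq promoter table (GRCh38.p14), in which each window is 300 bases around an annotated transcript start, 5′ to 3′ on the gene's strand. MCL1 was not matched. Capitals mark the E-box CACGTG, the same letters on both strands, in BAX (chr19:48954625-48954924, plus strand) and BBC3 (chr19:47232618-47232917, minus strand), and the GC-box GGGCGG on either strand in PMAIP1 (chr18:59899746-59900045, plus strand).
BAX: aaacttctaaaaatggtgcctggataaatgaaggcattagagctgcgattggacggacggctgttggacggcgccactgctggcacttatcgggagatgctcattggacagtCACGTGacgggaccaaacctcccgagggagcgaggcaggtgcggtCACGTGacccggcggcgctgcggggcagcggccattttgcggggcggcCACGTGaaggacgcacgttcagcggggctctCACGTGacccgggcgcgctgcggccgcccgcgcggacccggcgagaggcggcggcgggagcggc
BBC3: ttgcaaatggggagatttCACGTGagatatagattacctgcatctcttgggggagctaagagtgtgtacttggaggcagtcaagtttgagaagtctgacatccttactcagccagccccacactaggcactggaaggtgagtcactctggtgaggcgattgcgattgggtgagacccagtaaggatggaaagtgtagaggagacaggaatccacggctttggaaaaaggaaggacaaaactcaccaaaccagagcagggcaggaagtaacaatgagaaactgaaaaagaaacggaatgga
PMAIP1: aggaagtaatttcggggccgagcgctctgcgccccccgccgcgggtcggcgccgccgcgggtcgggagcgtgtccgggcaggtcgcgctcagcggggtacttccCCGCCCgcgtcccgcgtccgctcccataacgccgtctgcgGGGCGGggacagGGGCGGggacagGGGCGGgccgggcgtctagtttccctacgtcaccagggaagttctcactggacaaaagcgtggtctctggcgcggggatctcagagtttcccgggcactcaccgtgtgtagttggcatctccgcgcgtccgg
The BAX window held CACGTG 4 times, as did 0.0142% of all 35116 windows (at least 4 times; 5 windows), and BBC3 held it 1 time, as did 7.26% of windows (at least 1 time). PMAIP1 held GGGCGG 4 times, as did 9.06% of windows (at least 4 times). The BAX window also held GGGCGG 2 times, as did 26.7% of windows (at least 2 times). The PMAIP1 window held CACGTG 0 times and the BBC3 window GGGCGG 0 times. BID, whose treated SH2 and treated control libraries overlapped, had windows with GGGCGG 4 times and others with CACGTG 1 time. The marked motif was not the same in all 3 windows, and a link of either motif with the direction of a gene was not tested. These are matches of letters and no evidence of a bound factor.

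The effect of inducing the shRNA was read from treated against untreated SH2 cells, a comparison that also holds the additional sort for the reporter; the drug, the shRNA and that sort cannot be told apart in it. Of the 10 members 0 passed the threshold (adjusted p under 0.05), where 0.0167% of all genes tested did (2 genes, both lower), a share at which 0 of 10 does not set the members apart. BCL2L1 came nearest: it averaged 13.5 ± 4.77 CPM in treated and 27.5 ± 10.2 CPM in untreated SH2 cells (SD, n = 4 each). Its log2 fold change was -1.02 ± 0.33 (SE). It was lower in 4 of 4 sets, by log2 differences of -0.76, -0.52, -0.57 and -1.94 in sets 1 to 4. Its edgeR p of 0.00751 ranked 91 among all genes, and the adjusted p was 0.97, or 0.332 with the set as a block, a fit that took 0.0501% of all genes and again 0 members. The treated and untreated SH2 libraries overlapped for 10 of 10 members, beside 3.41% of all genes for which they did not. Without both SH2 libraries of set 4 the log2 fold change of BCL2L1 was -0.67 ± 0.33 (adjusted p = 1). At an unadjusted p under 0.05 the test took 584 genes (4.88%), BCL2L1 the sole member among them. DESeq2 called 16 genes (0.18% of the genes it tested) and 0 members.

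BAX was the other member with the same sign in all sets, at -0.20, -0.36, -0.59 and -0.39 in sets 1 to 4, a log2 fold change of -0.35 ± 0.36 (adjusted p = 0.986). Members of 1 sign in 4 of 4 sets were thus 2 of 10, beside 20.7% of all genes. MCL1 had 0.35 ± 0.26 (adjusted p = 0.983), higher in 3 of 4 sets, with 0.95 in set 4 and at most 0.31 in the others; it was 0.10 ± 0.26 without both SH2 libraries of set 4. The remaining 7 members had log2 fold changes between -0.26 (BID) and 0.19 (BAK1). Over the 10 members the median was -0.14, beside 0.03 over all genes tested, with 4 positive and 6 negative.

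Set 4 held the largest difference of several members. BCL2 differed by 0.15, 0.08, -0.12 and -0.83 in sets 1 to 4. BBC3 was at -0.43, -0.33, 0.49 and -0.91, and BID at -0.02, -0.28, 0.17 and -0.77, so set 3 had the other sign in both. BAK1 was at 0.06, -0.66, 0.01 and 0.86, with set 2 of the other sign. Without both SH2 libraries of set 4 the log2 fold change was 0.03 for BCL2, -0.04 for BBC3, -0.04 for BID and -0.16 for BAK1, so the BCL2 and BAK1 estimates changed sign.

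**Figure D3:**
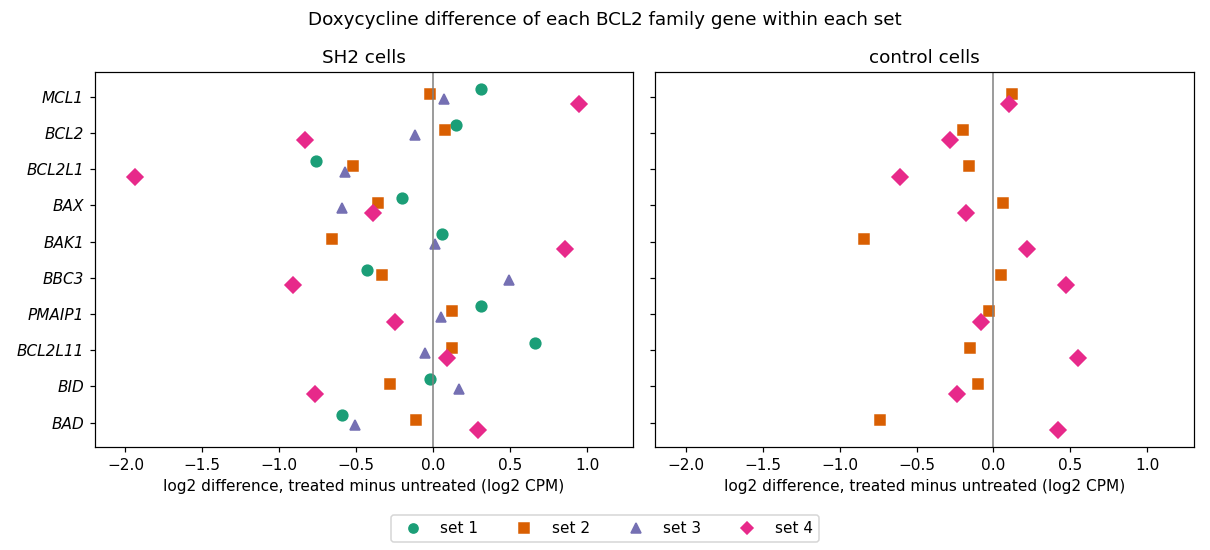
Doxycycline difference of each BCL2 family gene within each set (horizontal axis, treated minus untreated, log2 CPM; 0 marked), SH2 cells on the left and control cells on the right. Each point is 1 set; BCL2L1 lies left of 0 in 4 of 4 SH2 sets and 2 of 2 control sets, and the set 4 point of SH2 cells is the outermost for MCL1, BCL2, BCL2L1, BAK1, BBC3 and BID.

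Treated against untreated control cells held the drug without SH2, in cells whose light chain differs from that of SH2 cells. Whether control cells hold the scrambled shRNA is not given, so the drug and any such hairpin cannot be told apart here. Of the members 0 passed, and 0% of all genes did by edgeR or DESeq2 (82 genes, or 0.685%, at an unadjusted p under 0.05). BCL2L1 averaged 27.4 ± 2.52 CPM in treated and 36.3 ± 4.96 CPM in untreated control cells (SD, n = 2 each). Its set differences were -0.16 and -0.61, with a log2 fold change of -0.41 ± 0.45 (adjusted p = 1), and its treated libraries lay below its untreated ones, as in 11.6% of all genes. The other members of control cells had log2 fold changes between -0.34 (BAK1) and 0.31 (BBC3). The difference between the SH2 and control responses was tested as an interaction, and 0 members and 0% of genes passed (116 genes, or 0.969%, at an unadjusted p under 0.05; DESeq2 called 2 genes and edgeR with the set as a block 1). For BCL2L1 it was -0.62 ± 0.56 (adjusted p = 1) and for BBC3 -0.51 ± 0.53 (adjusted p = 1), so neither response was shown to differ between SH2 and control cells.

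SH2 and control cells were then compared within each treatment. With doxycycline 0 of 10 members passed, where 11.1% of all genes did, and without it 0 of 10, where 7.84% did. MCL1 averaged 691 ± 210 CPM in treated SH2 and 359 ± 30.2 CPM in treated control cells (SD, n = 4 and n = 2), a log2 fold change of 0.94 ± 0.33 (adjusted p = 0.0861). Without doxycycline it averaged 543 ± 122 CPM in SH2 and 332 ± 23.2 CPM in control cells, a log2 fold change of 0.71 ± 0.33 (adjusted p = 0.243). MCL1 was higher in SH2 cells in both sets under both treatments, by log2 differences of 0.61 and 1.52 with and 0.75 and 0.67 without doxycycline in sets 2 and 4.

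BAX averaged 30.5 ± 16.4 CPM in treated SH2 and 64.3 ± 0.659 CPM in treated control cells, a log2 fold change of -1.08 ± 0.43 (adjusted p = 0.126). Without doxycycline it averaged 38.7 ± 16.5 CPM in SH2 and 67.2 ± 7.17 CPM in control cells, a log2 fold change of -0.80 ± 0.43 (adjusted p = 0.329). Within sets 2 and 4 the BAX differences were -1.08 and -1.50 with and -0.66 and -1.29 without doxycycline. Over all 8 SH2 against all 4 control libraries, MCL1 (higher) and BAX (lower) did not overlap, which was 2 of 10 members beside 15.6% of all genes. The MCL1 to BAX ratio was 9.17 to 44.5 in treated SH2 and 6.42 to 27.1 in untreated SH2 cells, against 5.29 to 5.88 in treated control and 4.37 to 5.61 in untreated control cells.

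BBC3 averaged 117 ± 50.7 CPM in treated SH2 and 263 ± 109 CPM in treated control cells, a log2 fold change of -1.17 ± 0.36 (adjusted p = 0.0524). It was -0.65 ± 0.37 (adjusted p = 0.36) without doxycycline, and the set 4 difference, -2.37 with doxycycline, was well beyond the -0.58 of set 2. Leaving out the treated control library with the highest BBC3 value, that of set 4, gave a treated estimate of -0.68. PMAIP1 leaned the other way, at 1.0 ± 0.54 (adjusted p = 0.274) with and 0.89 ± 0.54 (adjusted p = 0.408) without doxycycline. With the SH2 library of set 3 left out, PMAIP1 was at 0.53 with and 0.40 without doxycycline. BCL2L1 was at -1.02 ± 0.39 (adjusted p = 0.111) with and -0.40 ± 0.38 (adjusted p = 0.64) without doxycycline.

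Of the members, MCL1, PMAIP1 (higher), BCL2L1, BAX and BBC3 (lower) did not overlap between treated SH2 and treated control cells, beside 31.9% of all genes. In untreated cells MCL1 (higher), BAX, BBC3 and BAD (lower) did not overlap, beside 32.9%. BCL2, BAK1, BCL2L11 and BID had log2 fold changes of -0.08 to 0.51 with and -0.02 to 0.41 without doxycycline (adjusted p of 0.536 or more). BAD was at -0.54 ± 0.44 (adjusted p = 0.491) with and -0.47 ± 0.44 (adjusted p = 0.632) without doxycycline. The median over the 10 members was 0.14 with and -0.02 without doxycycline, beside 0.04 and 0.03 over all genes.

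Set numbers were also taken to pair SH2 with control libraries, and with the set as a block the calls changed. That pairing was checked between treated and untreated SH2 libraries alone, and control libraries exist in sets 2 and 4 alone. Whether SH2 and control libraries of the same set share a set effect was not tested. In treated cells the blocked edgeR fit called MCL1 higher (1.03 ± 0.28, adjusted p = 0.0211), BAX lower (-1.32 ± 0.26, adjusted p = 0.00394) and BBC3 lower (-1.31 ± 0.38, adjusted p = 0.0299), each in the same direction in 2 of 2 sets. These were 3 of 10 members, beside 18.1% of all genes under the same fit. In untreated cells it called BAX alone (-1.0 ± 0.26, adjusted p = 0.0227), lower in 2 of 2 sets, 1 of 10 members beside 12.6% of genes. DESeq2 without a set term called MCL1 (adjusted p = 0.0316) and BBC3 (adjusted p = 0.0274) with doxycycline, 2 of 10 members beside 12% of its genes, and 0 members without it, beside 8.74%. With no filter on low counts edgeR called BAX (adjusted p = 0.0485) and BBC3 (adjusted p = 0.0135) with doxycycline, beside 7.61% of genes. The control cells rest on 2 libraries per treatment, and the light chain, B-lineage and T-cell marker differences given above move with the same comparison; their part in these differences was not tested.

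**Figure D4:**
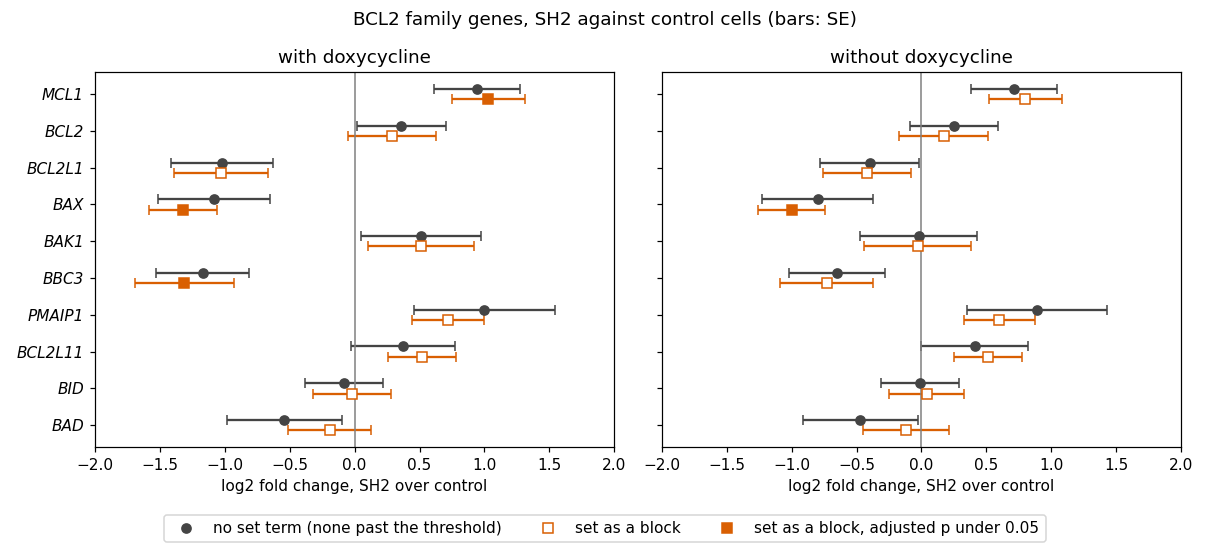
Log2 fold change of each BCL2 family gene in SH2 over control cells (horizontal axis; bars are the SE), with doxycycline on the left and without it on the right. Circles are the fit with no set term, in which none passed, and squares the fit with the set as a block, filled where the adjusted p was under 0.05: MCL1, BAX and BBC3 with doxycycline, BAX without.

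The members also varied between sets of SH2 cells. The range of the 4 set means, on the log2 scale, exceeded the largest within-set doxycycline difference for 5 members and lay below it for 5; over all genes the median range was 0.84 and the median of the largest difference 0.83. PMAIP1 had the widest range of the members, 1.81, beside a largest doxycycline difference of 0.31. Its set means were 82.3, 148, 291 and 112 CPM in sets 1 to 4. BAX spanned 1.45 in log2, with set means of 57.8, 34.4, 20.9 and 25.4 CPM, and BCL2L11 spanned 1.31, with 63.1, 131, 154 and 127 CPM. Set 1 was thus high for BAX and low for PMAIP1 and BCL2L11, and set 3 the reverse. The set mean of MCL1 was lowest in set 1 (445 CPM) and highest in set 4 (738 CPM). BID, at 22.0, 23.2, 25.2 and 29 CPM, spanned the least (0.34).

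The genes with the pattern most like a member were searched among 8405 genes for the 3 members with the largest spread over the 12 libraries, by Pearson's r of log2 CPM. For BAX they were BRK1 (0.966), PDHB (0.962) and QARS (0.960), for PMAIP1 MXD1 (0.946), KLF6 (0.939) and TMF1 (0.931), and for BCL2L1 they included RPL5 (0.941) and EIF4G2 (0.933). The 12 libraries share cells, sets and treatments, so these values describe the libraries and carry no test.

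Other genes of the cell death pathway were examined in 8 lists of 69 genes, of which 63 were tested. In treated against untreated SH2 cells 0 of the 63 passed (7 at an unadjusted p under 0.05; 0 with the set as a block), and 0 did in control cells or in the interaction. Between SH2 and control cells 13 passed with doxycycline (4 higher, 9 lower) and 12 without (3 higher, 9 lower), beside 11.1% and 7.84% of all genes. All of these calls were also made with the set as a block.

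Among the other BCL2 family genes, 1 of 7 tested passed in each treatment, lower. It was BCL2A1, a survival member induced by NF-kB: it had 1 read over the 4 treated SH2 libraries, against 226 over the 2 treated control libraries, and 5 over the untreated SH2 libraries, against 230 over the untreated control libraries. The control over SH2 ratio of BCL2A1 was 434 with doxycycline (95% exact counting interval 77.1 to 17200) and 115 without (48.7 to 358), with edgeR adjusted p-values of 1.02e-05 and 1.44e-05. BMF, a BH3-only gene, had 1.60 ± 0.62 (adjusted p = 0.117) with and 1.85 ± 0.63 (adjusted p = 0.097) without doxycycline, and it was called once the set was a term of the fit (adjusted p = 0.0103 and 0.00438). BCL2L10, BOK and BCL2L14 had at most 8 reads over the 8 SH2 and 5 over the 4 control libraries and were not tested.

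In the death receptor branch 5 of 10 genes passed with and 4 of 10 without doxycycline. TNFRSF10B, which encodes the TRAIL receptor DR5, had 0.482 ± 0.391 CPM in treated SH2 and 22.9 ± 4.32 CPM in treated control cells, a log2 fold change of -5.51 ± 0.64 (adjusted p = 0.000105), and -4.56 ± 0.60 (adjusted p = 0.000309) without doxycycline. FAS, another death receptor, was at -2.75 ± 0.64 (adjusted p = 0.0129) with and -3.79 ± 0.65 (adjusted p = 0.0023) without doxycycline. The FAS call with doxycycline ended without the treated control library of set 4 (-2.29, adjusted p = 0.144). CFLAR, the inhibitor of caspase-8 activation, was also lower in both treatments. The initiator caspase gene CASP10 was higher in both, at 1.89 ± 0.58 (edgeR adjusted p = 0.0496) with and 3.03 ± 0.63 (adjusted p = 0.00855) without doxycycline. Its control libraries held 3 to 14 reads, and without single libraries the estimate with doxycycline ran from 1.25 to 3.18. The adaptor gene TRADD was higher with doxycycline (2.35 ± 0.65, adjusted p = 0.0334, and 1.07 ± 0.64, adjusted p = 0.403 without it, interaction adjusted p = 1). The treated SH2 library of set 4 had 60 CPM of TRADD, against 11.3 to 21.6 CPM in the other treated SH2 libraries. Without that library the estimate with doxycycline was 1.64. The treated control libraries held 24 and 8 reads of TRADD.

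BIRC3, which encodes an inhibitor of apoptosis protein of the TNF receptor complex, was 1 of 6 tested genes of its list to pass and was lower. It had 12.8 ± 6.01 CPM in treated SH2 and 163 ± 4.01 CPM in treated control cells (-3.65 ± 0.55, adjusted p = 0.000829), and 11.3 ± 9.65 CPM in untreated SH2 and 190 ± 10.0 CPM in untreated control cells (-4.05 ± 0.55, adjusted p = 0.000481). Of the 8 apoptosome and caspase genes DFFA, the inhibitor of the caspase-activated DNase, passed alone (-1.84 ± 0.29, adjusted p = 0.00117 with and -1.43 ± 0.29, adjusted p = 0.00795 without doxycycline). Among genes of the DNA damage and stress response TP53INP1, which encodes a stress-induced protein, was higher (1.80 ± 0.32, adjusted p = 0.00244 with and 1.43 ± 0.31, adjusted p = 0.0108 without doxycycline). FDXR, which encodes a mitochondrial electron-transfer enzyme, passed without doxycycline (-1.57 ± 0.41, adjusted p = 0.0296) and had -0.74 ± 0.41 (adjusted p = 0.291) with it; the difference itself, the interaction, was 0.83 ± 0.60 (adjusted p = 1).

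Of 8 other regulators, FOXO1, a forkhead factor known to activate BCL2L11, was higher (2.80 ± 0.53, adjusted p = 0.00385 with and 1.76 ± 0.50, adjusted p = 0.0459 without doxycycline). STAT3, a regulator of MCL1 and BCL2L1 transcription, was lower (-1.34 ± 0.33, adjusted p = 0.019 and -1.18 ± 0.34, adjusted p = 0.045). Of 8 mitochondrial membrane genes MFN1, which fuses mitochondria, was lower in both treatments (-1.81 ± 0.32, adjusted p = 0.00214 and -1.23 ± 0.32, adjusted p = 0.0267), and MTCH2, which binds truncated BID, lower with doxycycline (-1.21 ± 0.35, adjusted p = 0.0375, and -0.70 ± 0.35, adjusted p = 0.288 without it; interaction adjusted p = 1). Of 7 genes of MCL1 turnover 0 passed; USP9X, which removes ubiquitin from MCL1, was nearest with doxycycline (1.0 ± 0.35, adjusted p = 0.0817, and 0.00899 with the set as a block). The calls on BCL2A1, BIRC3 and TNFRSF10B held in both treatments under all 21 alternatives, as did those on DFFA, TP53INP1 and MFN1 with doxycycline. Every other call ended under at least 1 of them: without the control library of set 2, for example, STAT3 had -1.04 (adjusted p = 0.194) with and -0.65 (adjusted p = 0.586) without doxycycline and FOXO1 2.65 (0.0531) and 1.48 (0.379).

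**Figure D5:**
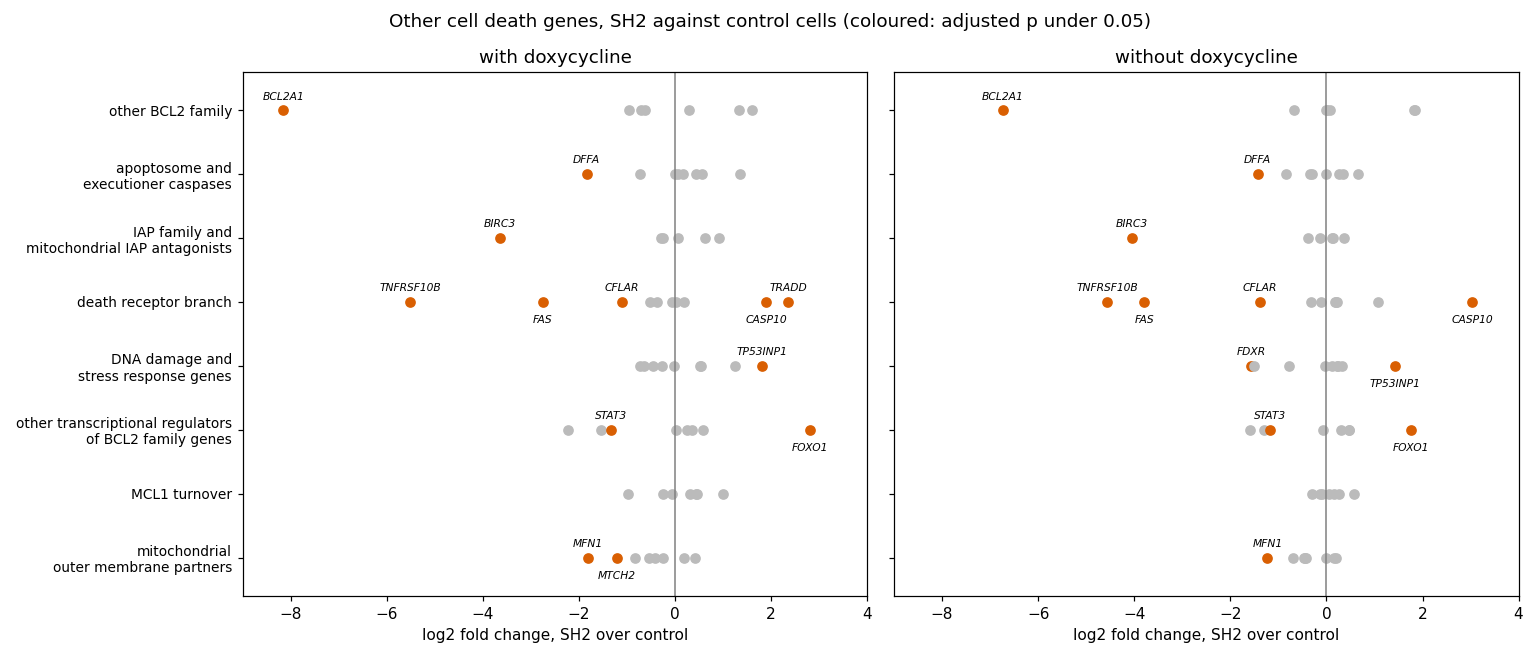
Log2 fold change in SH2 over control cells (horizontal axis) of the tested genes of the 8 other cell death lists (rows), with doxycycline on the left and without it on the right. Each point is 1 gene, coloured and named where the adjusted p was under 0.05; BCL2A1, BIRC3, TNFRSF10B and FAS lie furthest to the left.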

How the data were processed

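The authors deposited 1 count table per library, holding read counts by gene ID. The submitters' processing notes list hg38 (GRCh38) as the build and HTSeq, STAR, FastQC and DESeq2 as tools, with no version and no annotation release. Each table held 64253 gene IDs and 5 summary lines, which stayed out of library sizes and tests. Multiple alignments made up 42.2% to 63.8% of a library, reads outside genes 3.25% to 7.73% and reads shared by genes 1.11% to 1.62%. A second deposited table gives normalized signal for 26231 genes, each column being that library's counts times a constant: after division 100% of its values were whole (tolerance 0.01) and equal to the counts. The edgeR test on the reads so recovered called 2 genes for doxycycline in SH2 cells. Gene names came from that table, and it held 0 columns of other samples. Gene positions are from GENCODE 29 on GRCh38 and promoters from RefSeq on GRCh38.p14.

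The tests used edgeR 4.0.16 under R 4.3.3, with filterByExpr by group (minimum count 10), TMM scaling, 1 term per group over all 12 libraries, the robust quasi-likelihood test and Benjamini-Hochberg adjustment over the 11968 genes tested and a call at an adjusted p under 0.05. Across genes the common coefficient of biological variation came to 0.376. The SE of an edgeR log2 fold change was derived from its test, as the absolute log2 fold change over the square root of the F statistic. CPM were taken over TMM-scaled library sizes, and set differences use log2 CPM with a prior count of 3. Alternatives were DESeq2 size factors, no filter, a term for the set (block), DESeq2 1.42.0 with its Wald test, the compared groups alone, limma-trend of limma 3.58.1 on the deposited signal (pseudocount 1), the recovered reads (chosen after seeing the data), leaving out libraries and sets, and CPM by other library sizes. No molecular identifiers are recorded, so intervals hold for the counting of reads and not of independent molecules.

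By the design text each replicate was sorted and treated on its own, and no pair agreed within sampling noise (chi-square per degree of freedom 8.39 to 47.7). The labels give the set numbers. After subtraction of group means, treated and untreated SH2 libraries of 1 set correlated at 0.188 to 0.663. Those of different sets correlated at -0.548 to 0.272. All 4 sets passed the minimum of 0.1, and on that ground set numbers count as pairs here. The 0.188 of set 2 lay below the highest value between different sets, so this minimum does not separate pairs from other libraries. Control libraries were not part of this check. The members and the gene lists were chosen with earlier results of these data known. The text names all members, the 4 list genes of smallest p at most per list and contrast plus those that passed, IGF2BP1, and the 3 genes most like each of the 3 most variable members (mean log2 CPM of at least 3). Some genes that this rule allows are not reported here.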

Additional observations from a re-analysis of the deposited data

Results flagged for a closer look

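Among the groups of 4 SH2 libraries, a member's highest or lowest library was set against the others by its gap to the nearest, divided by the range (Dixon's ratio, at its 95% critical value). Of 20 such groups 2 held a library beyond it; chance gives about 1 in 20. BCL2 in the treated SH2 library of set 4 was at 51.2 CPM, below 89.6 to 96.8 CPM in the other treated libraries. BID in the treated SH2 library of set 3 was at 26.7 CPM, above 20.9 to 21.8 CPM in the others.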

How the results depend on the processing

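With the set as a replicate block the members called between SH2 and control cells numbered 3 with and 1 without doxycycline (0 and 0 without the block), while the block changed no other member's call; without the filter on low counts they numbered 2 (BAX, BBC3) and by DESeq2 2 (MCL1, BBC3) with doxycycline, and 0 to 1 when single libraries were left out (BBC3 at -1.54 with the set 2 treated control library left out, adjusted p = 0.0491, and at -1.47 with the set 3 treated SH2 library left out, adjusted p = 0.0172; BAX at -1.49 with the set 1 treated SH2 library left out, adjusted p = 0.0221). For doxycycline in SH2 or in control cells and for the interaction 0 members were called under the alternatives run; the fit on the compared groups alone does not exist for the interaction, which uses all groups.

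Over all genes, treated against untreated SH2 cells gave 2 calls, and 47 without the filter, 6 with the block, 16 by DESeq2, 0 on these groups alone, 1 without both SH2 libraries of set 4, 0 on sets 2 and 4 alone and 0 to 3 without single libraries. Control cells gave 3 calls without the filter, and the interaction 3 without the filter, 1 with the block and 2 by DESeq2. Treated SH2 against treated control cells gave 1326 calls, and 2171 with the block, 789 on these groups alone, 652 on sets 2 and 4 and 645 to 1462 without single libraries. Untreated SH2 against untreated control cells gave 938, and 1449 without the filter, 1505 with the block, 413 on sets 2 and 4 and 343 to 1202 without single libraries. A fit left with 1 control library in a group takes its spread from the other groups.

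Estimates of members near 0 changed sign. In treated against untreated SH2 cells BCL2 was 0.03 and BAK1 -0.16 without both SH2 libraries of set 4, and PMAIP1 was -0.04 and BAD 0.13 on sets 2 and 4 alone. Without single libraries the ranges were -0.23 to 0.03 for BCL2, -0.17 to 0.41 for BAK1, -0.12 to 0.33 for BCL2L11, -0.43 to 0.53 for PMAIP1 and -0.53 to 0.08 for BAD. In untreated SH2 against untreated control cells BAK1 was 0.03 and BID 0.02 without the filter, and BID 0.04 with the block and 0.19 on sets 2 and 4; without single libraries the ranges were -0.12 to 0.76 for BCL2, -0.30 to 0.33 for BAK1 and -0.20 to 0.17 for BID. With doxycycline they were -0.18 to 0.00 for BID and -0.99 to 0.10 for BAD, and in control cells BBC3 ran from -0.18 to 0.68. The cause was not tested. DESeq2 size factors moved the median log2 fold change of all genes by at most 0.008. The members BID, BAK1 and BCL2L1 had the fewest reads, so counting error limits them most.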
